A study of Homo sapiens with 6 samples.

Results

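HAND1 and HAND2 are the members of the HAND family of transcription factor genes, and the data described here are the CUT&Tag peaks around them in the neuroblastoma line SK-N-BE(2), which is long established in culture. Every deposited peak with its summit within 200 kb of either gene was taken, which gave 74 peaks at HAND1 and 73 at HAND2, 147 of the 118064 peaks on chromosomes 1 to 22 and X. The study mapped the transcription factors HAND2, MEIS2 and TCF4 with 2 HAND2 libraries, 2 MEIS2 libraries and 1 TCF4 library. An IgG library, made with a non-specific antibody as control, has no peak list here. The labels give no treatment or genetic change for any library, so the groups differ in the antibody alone as far as they say. The peak identifiers of MEIS2 replicate 2 all contain the word Flag and those of the other lists do not. The labels give both MEIS2 libraries the same antibody, so whether these are like replicates is not settled here. CUT&Tag directs a transposase to the antibody-marked protein, where it cuts the DNA and inserts sequencing adapters. Nothing in the labels ties replicates to separate cultures, and their spread may be technical. No permutation test was made between factors, since 2 libraries against 2 cannot go below a two-sided p of 0.333.

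HAND1 and HAND2 are basic helix-loop-helix (bHLH) proteins. They bind DNA as dimers with E proteins, such as TCF4, at short sequences called E-boxes. HAND2 is needed for the noradrenergic identity of sympathetic neurons, the lineage from which neuroblastoma arises, and both HAND genes are also known for their roles in the developing heart. MEIS2 is a homeodomain factor of the TALE class. Transcription factors of this lineage commonly bind near their own genes and near one another's genes, and the HAND loci are a place to read such binding in all the lists.

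Both genes lie on the minus strand in GRCh38, so that upstream means higher coordinates. HAND1 runs from 154474972 to 154478227 on chromosome 5 and HAND2 from 173526091 to 173530229 on chromosome 4, and each has 1 start in the RefSeq table used, at its higher end. The 250 bases before each start are printed because peaks of at least 4 libraries lay within 1 kb of it. Capitals mark any E-box (CANNTG) and the GATA-type letters AGATAA or TTATCT. Other GATA-type letters, such as tgataa in the HAND2 sequence, were not searched and stay in lower case. The last line is 50 bases of HAND2-AS1, the antisense long non-coding RNA gene that shares this region. They run from a later listed start of that gene, 229 bp upstream of the HAND2 start, whereas the gene itself begins at 173528600, inside HAND2. The stretch is shown because it holds a further E-box that the edge of the HAND2 window cuts.
HAND1 (chr5:154478228-154478477, minus strand): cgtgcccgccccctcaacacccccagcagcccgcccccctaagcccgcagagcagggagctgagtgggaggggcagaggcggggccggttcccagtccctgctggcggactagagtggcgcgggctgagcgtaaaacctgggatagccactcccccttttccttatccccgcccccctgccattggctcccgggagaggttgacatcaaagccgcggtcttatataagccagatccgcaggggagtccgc
HAND2 (chr4:173530230-173530479, minus strand): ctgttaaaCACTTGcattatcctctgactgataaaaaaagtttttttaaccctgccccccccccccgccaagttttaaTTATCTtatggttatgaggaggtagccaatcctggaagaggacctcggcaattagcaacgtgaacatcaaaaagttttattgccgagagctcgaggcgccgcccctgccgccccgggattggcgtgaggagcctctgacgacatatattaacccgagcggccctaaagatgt
HAND2-AS1 (chr4:173530458-173530507, plus strand): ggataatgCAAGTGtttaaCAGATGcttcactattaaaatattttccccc

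The HAND1 sequence held no E-box and was 67.2% G and C. The HAND2 sequence was 49.6% G and C and held the E-box CACTTG, 237 to 242 bp before the start, and TTATCT, 167 to 172 bp before it. The HAND2-AS1 stretch reads the same E-box from the other strand as CAAGTG. Its other E-box, CAGATG, lay 248 to 253 bp before the HAND2 start. Peaks of HAND2 replicate 2, MEIS2 replicates 1 and 2 and TCF4 covered all 3 of these positions, and the HAND2 replicate 1 peaks covered none of them. Searched on both strands of 34789 RefSeq promoters of 300 bases (250 before to 50 after the start, GRCh38.p14), CANNTG was found in 68.7%, CAGATG or CATCTG, which are forms of CANNTG, in 14.7%, CAGCTG, another form, in 17.9%, AGATAA or TTATCT in 10.4%, and TGACAG or CTGTCA, the MEIS-type letters, in 15.8%. Of these motifs the 300 bases of HAND2 held an E-box and the GATA-type letters only, and those of HAND1 held none. A match is a description of the letters in the window and not a measured binding site.

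Peaks of 4 libraries lay within 1 kb of the HAND1 start, and peaks of all 5 within 1 kb of the HAND2 start. Values are the peak caller's fold enrichments, the pile-up of fragments at a peak's summit over the local background with 1 added to each, and their 95% intervals hold the background fixed. The intervals cover counting error only, since duplicate fragments could not be told from independent ones. A fold is read within its own list, since the lists differ in depth.

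At the HAND1 start the HAND2 libraries had 10.1-fold (8.61 to 11.8) and 10.7-fold (9.24 to 12.3) peaks in replicates 1 and 2, with summits 291 and 292 bp upstream. The TCF4 peak had 12.2-fold (10.6 to 14.0), with its summit 0.135 kb inside the gene. MEIS2 replicate 1 had 3.53-fold (2.22 to 5.36) from a pile-up of 20 fragments, in a peak that ended at 154478213, before the start itself. MEIS2 replicate 2 had no peak there. The −log10 q values of the 4 peaks were 102, 125, 143 and 4.31 in the order given, and the lowest that a list holds is 2.00 to 2.02.

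At the HAND2 start the HAND2 libraries had 3.14-fold (1.902 to 4.92) and 5.01-fold (3.47 to 7.01), with summits 0.228 and 0.190 kb inside the gene and −log10 q of 3.43 and 12.1. HAND2 replicate 1 had a further peak of 3.85-fold with its summit 1399 bp upstream. MEIS2 replicate 1 had 20.1-fold (15.2 to 26.1) and −log10 q of 56.4, which placed 215th of 9598 peaks in its list. MEIS2 replicate 2 had 3.74-fold (2.02 to 6.45) on a pile-up of 11, 13367th of 13876 in its list. TCF4 had 12.8-fold (10.1 to 16.1).

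Within each HAND2 library, then, the interval at the HAND1 start lay above the one at the HAND2 start, and in MEIS2 replicate 1 it lay below. The TCF4 intervals at the 2 starts overlapped. Of 15811 protein-coding genes with a listed start, 20.5% and 27.9% had a peak of HAND2 replicates 1 and 2 within 1 kb of a start, 11.7% and 2.04% had one of MEIS2 replicates 1 and 2, and 55.7% had one of TCF4. Peaks of all 5 libraries stood within 1 kb of a start at 0.791% of these genes, HAND2 among them. Peaks of the 4 libraries other than MEIS2 replicate 2 stood there at 7.39%, HAND1 and HAND2 among them. TCF4 at a start is thus common, and MEIS2 replicate 2 at a start is rare.

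**Figure D1:**
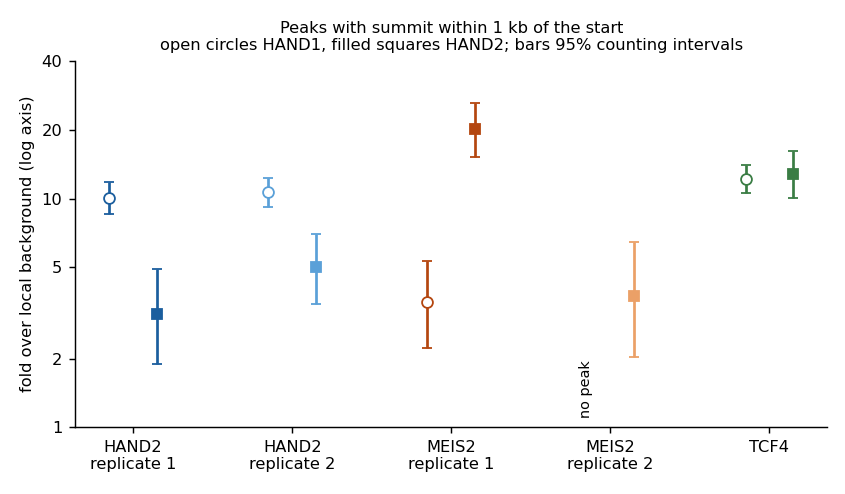
Fold over local background (log axis) of the peaks with summit within 1 kb of the start, for each library; open circles are HAND1, filled squares HAND2 and bars 95% counting intervals. HAND2 folds are near 10 at HAND1 and 3.14 and 5.01 at HAND2, MEIS2 replicate 1 has 3.53 and 20.1, and MEIS2 replicate 2 has no peak at the HAND1 start.

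The peaks around HAND1 lay mostly upstream of the gene. Of the summits, 16 of 20 and 22 of 24 were upstream in HAND2 replicates 1 and 2, 5 of 7 in each of the MEIS2 replicates, and 11 of 16 in TCF4. On that side the gene table lists 3 pseudogenes and 1 microRNA gene within 200 kb and no protein-coding gene, and no upstream summit lay in a listed gene. The downstream side holds SAP30L, 13.9 kb away, and GALNT10, 54.0 kb away. Joined wherever they overlapped by at least 1 bp, the 74 peaks formed 29 sites of 365 to 4421 bp, and both HAND2 replicates were present at 17 of them.

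The strongest HAND1 site lay 39.2 kb upstream of the start, on chromosome 5 from 154516255 to 154519562. TCF4 reached 67.0-fold there (63.0 to 71.3), from 1012 fragments over a background of 14.1, which is 35th of the 30711 peaks in its list. HAND2 replicates 1 and 2 had 31.1-fold (28.4 to 34.0) and 35.3-fold (32.6 to 38.2), 497th of 30410 and 270th of 33484. The HAND2 summits fell on the same base and the TCF4 summit 1 bp from it. MEIS2 replicate 1 had 9.12-fold (6.63 to 12.3), and MEIS2 replicate 2 had 2.75-fold (1.77 to 4.11), 13788th of 13876. All 5 summits stood within 101 bp, so the libraries shared the place. By fold the HAND2 and TCF4 peaks stood above 98.4%, 99.2% and 99.9% of their lists, and the MEIS2 peaks above 79.1% and 0.634%.

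A broader stretch followed 45.5 to 48.2 kb upstream (154522639 to 154527059). HAND2 replicate 1 covered it with a single peak of 28.9-fold (25.4 to 32.8), where replicate 2 had separate peaks of 18.6-fold and 20.1-fold. TCF4 had 3.37-fold and 7.69-fold at the same positions, and MEIS2 replicate 1 had 6.36-fold at the nearer one. Neighbouring peaks 49.99 to 50.1 kb upstream had 13.3-fold and 9.52-fold for HAND2 and 4.90-fold for MEIS2 replicate 2, without TCF4.

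The other sites with all 5 libraries lay 126 kb and 8.3 kb upstream. The farther one (154602967 to 154605908) had 21.0-fold (18.5 to 23.6) and 23.7-fold (21.5 to 26.1) in the HAND2 replicates and 20.9-fold (18.7 to 23.3) for TCF4. It was the strongest MEIS2 site of the locus, with 15.2-fold (11.8 to 19.3) and 7.97-fold (5.92 to 10.5) in replicates 1 and 2, whose summits fell on the same base. The nearer one (154485966 to 154486882) had 17.8-fold and 18.2-fold for HAND2, 14.1-fold and 5.84-fold for MEIS2 and 4.35-fold for TCF4.

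Further HAND2 sites were weaker. One 98.4 kb upstream had 11.2-fold and 13.4-fold for HAND2, 6.65-fold for MEIS2 replicate 1 and 7.47-fold for TCF4. The site 117.5 kb upstream also had all 3 factors, with 7.15-fold and 5.92-fold for HAND2, 4.48-fold for MEIS2 replicate 2 and 7.86-fold for TCF4. Another 80.4 kb downstream, where the GALNT10 and SAP30L-AS1 genes overlap, had 8.55-fold and 10.02-fold for HAND2 and 2.88-fold for TCF4. HAND2 sites in both replicates with neither other factor lay about 6.05, 33.3, 129 and 130 kb upstream (midway between the summits), with folds of 4.07 to 6.61.

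**Figure D2:**
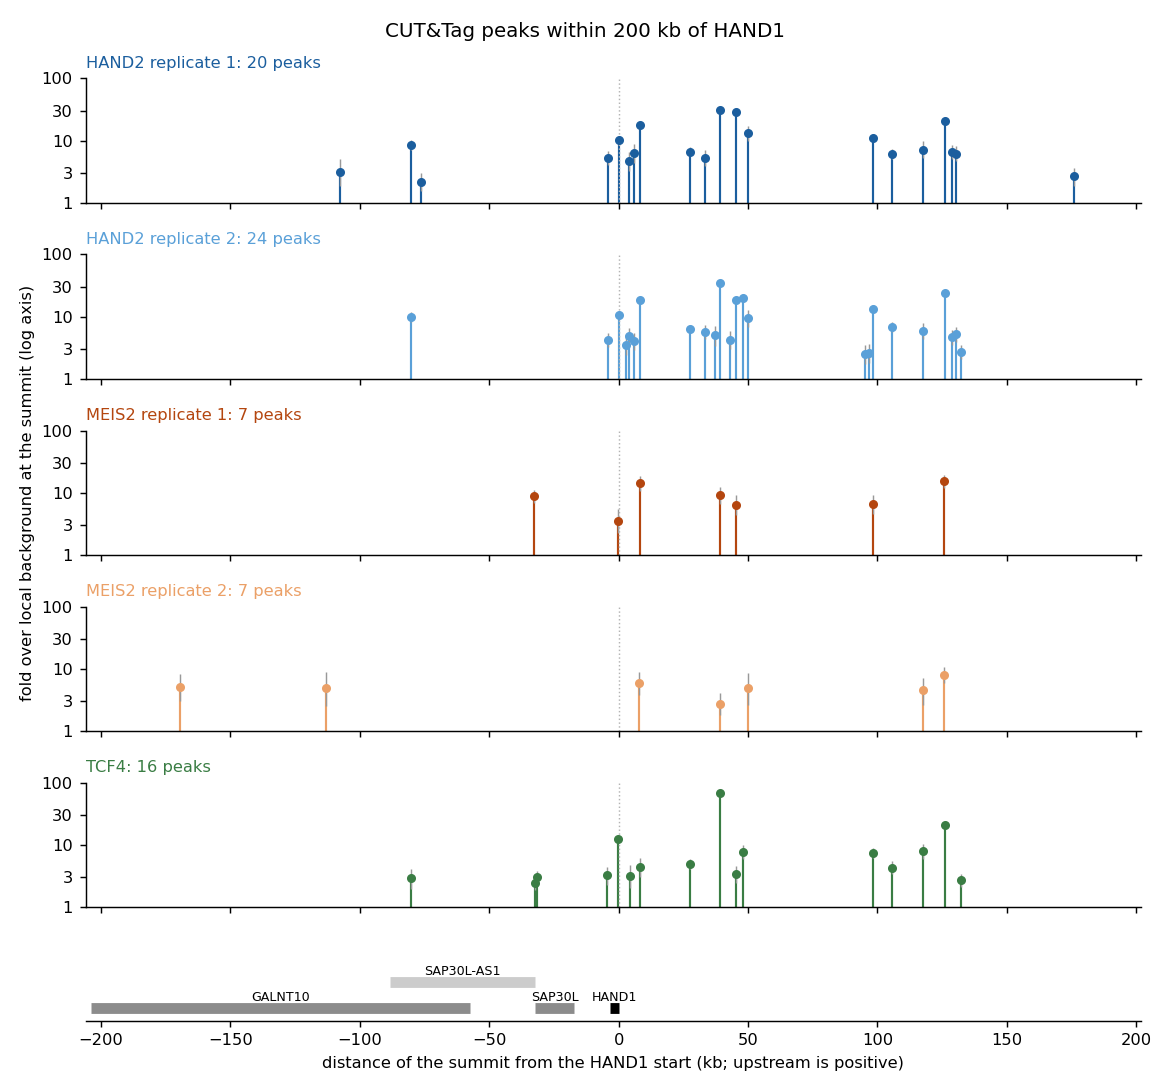
Peaks within 200 kb of HAND1 in each library, by distance of the summit from the start (kb, upstream positive) and fold over local background (log axis, bars 95% counting intervals), above the protein-coding genes and SAP30L-AS1. Most summits are upstream, where no protein-coding gene lies, and the highest point is TCF4 at 67.0-fold 39.2 kb upstream.

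The peaks around HAND2 lay on the other side. In HAND2 replicates 1 and 2, 14 of 20 and 10 of 14 summits were downstream of the gene. MEIS2 had 11 of 16 and 7 of 13 there, and TCF4 7 of 10. SCRG1, a protein-coding gene whose nearer end lies 6.95 kb from the 3′ end of HAND2, held 11 and 7 HAND2 summits, 7 and 7 MEIS2 summits and 2 of TCF4. HAND2-AS1 overlaps the HAND2 start, runs on upstream and held 6 and 4 HAND2 summits, 4 and 6 MEIS2 summits and 2 of TCF4. Some of these lay inside HAND2 itself. The whole upstream side had 5 and 3 HAND2 summits, 3 and 6 MEIS2 summits and 2 of TCF4. The gene table used gives no exons, so exon or intron is not stated. The 73 peaks formed 28 sites of 355 to 4415 bp, of which 12 had both HAND2 replicates and 14 had 1 library.

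TCF4 was strongest just downstream of HAND2. The TCF4 peak 8.19 kb from the start, in the interval between HAND2 and SCRG1, had 23.8-fold (22.3 to 25.4) from 901 fragments. MEIS2 replicate 1 had 8.15-fold (6.66 to 9.88) with its summit 1 bp away. The HAND2 replicates had 2.76-fold (2.28 to 3.31) and 3.53-fold (2.98 to 4.15), with −log10 q of 18.3 and 33.6. Their pile-ups of 115 and 143 were the highest of the HAND2 locus in each list, although these folds were among its lowest. The local background at these HAND2 summits was 41.03 and 39.8 fragments, against list medians of 5.52 and 7.45, and 36.8 at the TCF4 summit against 10.97; its part in the HAND2 folds was not tested. The next TCF4 peak, 11.2 kb downstream at the edge of SCRG1, had 19.0-fold (16.8 to 21.4), beside HAND2 peaks of 6.51-fold to 8.20-fold and a MEIS2 replicate 1 peak of 8.89-fold.

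The strongest site of the locus for both HAND2 replicates and for MEIS2 replicate 2 lay within SCRG1, 80.7 to 82.2 kb downstream (chromosome 4, 173447721 to 173449912), and had no TCF4 peak. MEIS2 replicate 1 was strongest at the HAND2 start. HAND2 replicates 1 and 2 had 21.9-fold (17.1 to 27.6) and 18.4-fold (14.4 to 23.3) with summits 82.2 and 82.15 kb from the start. MEIS2 replicate 2 had 24.9-fold (18.2 to 33.4) 81.2 kb from it, 168th of 13876 peaks, and MEIS2 replicate 1 had 8.56-fold (4.74 to 14.5) at 80.8 kb on a pile-up of 12. A small HAND2 replicate 1 peak of 4.31-fold lay 80.7 kb from the start. The main HAND2 summits and the MEIS2 summits of this site thus stood apart, and only the small HAND2 peak lay beside that of MEIS2 replicate 1.

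Upstream of HAND2 the same libraries met at 3 places inside HAND2-AS1. At 6.9 kb (173536680 to 173539362) HAND2 replicate 1 had 19.2-fold (14.2 to 25.3), MEIS2 replicates 1 and 2 had 16.5-fold (10.8 to 24.2) and 12.5-fold (7.93 to 18.8), and TCF4 had 5.38-fold. HAND2 replicate 2 had 7.44-fold (5.52 to 9.81) with its summit 777 bp from that of replicate 1. Both HAND2 pile-ups were 48, over backgrounds of 1.55 and 5.59. The MEIS2 pile-ups were 24 and 21, over backgrounds of 0.518 and 0.765. The backgrounds of HAND2 replicate 1 and of both MEIS2 replicates were the lowest of their lists. At 27 kb (173556389 to 173558390) the HAND2 replicates had 16.2-fold and 10.01-fold and the MEIS2 replicates 14.8-fold and 8.50-fold, without TCF4. At 2.57 to 2.97 kb the HAND2 replicates had 7.76-fold and 7.28-fold and the MEIS2 replicates 12.1-fold and 5.28-fold, again without TCF4.

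Beyond the HAND2-AS1 sites the upstream side was almost empty, with 1 TCF4 peak of 4.38-fold at 118 kb. Downstream, sites at 39 and 44 kb in SCRG1 had both HAND2 and both MEIS2 replicates with folds of 3.62 to 7.61 and no TCF4. A site at 26.1 kb had 6.30-fold and 5.01-fold for HAND2, 5.12-fold for MEIS2 replicate 1 and 4.26-fold for TCF4.

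**Figure D3:**
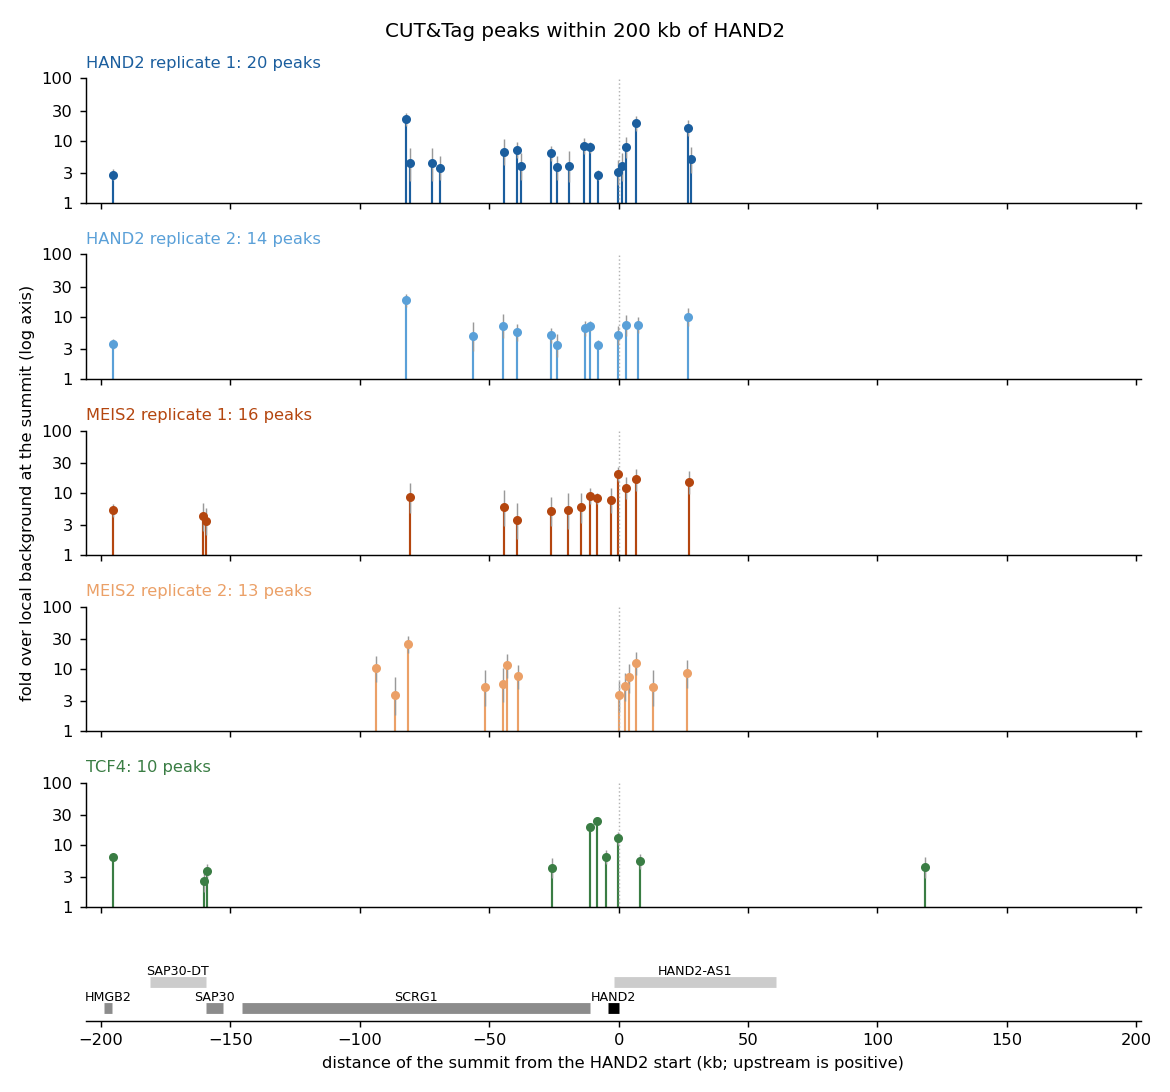
Peaks within 200 kb of HAND2 in each library, by distance of the summit from the start (kb, upstream positive) and fold over local background (log axis, bars 95% counting intervals), above the neighbouring protein-coding genes and 2 long non-coding RNA genes. HAND2 and MEIS2 summits are spread through SCRG1 and HAND2-AS1, and the TCF4 summits of 12.8-fold to 23.8-fold lie between the start and 11.2 kb downstream.

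Some of these peaks stood at the starts of neighbouring genes. SAP30L and SAP30, which encode related subunits of a histone deacetylase complex, neighbour HAND1 and HAND2 respectively. Beside the SAP30L start, in SAP30L-AS1, MEIS2 replicate 1 had 8.78-fold (6.86 to 11.1) and TCF4 had 2.45-fold (1.89 to 3.13). TCF4 had 3.84-fold at the SAP30 start, and MEIS2 replicate 1 had 4.20-fold and 3.49-fold in the adjoining SAP30-DT. HAND2 had no peak at either. Just past the nearer end of HMGB2, a chromatin protein gene, 195.5 kb downstream of the HAND2 start, TCF4 had 6.26-fold (5.46 to 7.13), MEIS2 replicate 1 had 5.21-fold and the HAND2 replicates had 2.84-fold and 3.64-fold. The 200 kb window therefore holds sites of other genes, which the peak lists do not assign to one gene or another.

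The 2 loci differed in which factors met. Here a factor counts as present where any of its libraries had a peak. HAND2 with TCF4 was found at 13 of 29 HAND1 sites and 6 of 28 HAND2 sites, against 26.3% of all 61457 sites formed in the same way over the genome. HAND2 with MEIS2 was found at 8 and 12 sites, against 17.0%. All 3 factors met at 7 and 6 sites, against 9.36%, and all 5 libraries at 3 and 2 sites, against 1.72%. Without MEIS2 replicate 1 the sites with all 3 factors fell to 4 at HAND1 and 2 at HAND2. The share of all sites was not computed without that library, so 9.36% is not its counterpart.

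Both MEIS2 replicates were present at 3 HAND1 sites and 7 HAND2 sites, against 3.81% of all sites. Where peaks were instead joined by summits within 250 bp, the HAND2 locus had 2 sites with both, so its count and the combination below depend on joining by overlap. The share of all sites was not computed for joining by summits. All of the 10 sites joined by overlap also had both HAND2 replicates. The 3 at HAND1 all had TCF4, whereas 5 of the 7 at HAND2 had none, a combination seen at 0 HAND1 sites and at 1.57% of all sites. Both HAND2 replicates were present at 17 and 12 sites, against 37.1%, sites of a single library made up 10 and 14, against 52.9%, and sites of MEIS2 replicate 2 alone 2 and 6, against 14.3%. These counts describe 2 places of the genome, and the difference between them was not tested.

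By peak, the HAND2 replicates overlapped at shares on either side of those of their whole lists. Of replicate 1 peaks, 17 of 20 at HAND1 and 14 of 20 at HAND2 overlapped replicate 2, beside 78.5% in the whole list, and the reverse was 19 of 24 and 13 of 14, beside 71.6%. TCF4 peaks overlapped HAND2 replicate 2 at 14 of 16 and 6 of 10, beside 52.9%, and HAND2 replicate 2 peaks overlapped TCF4 at 14 of 24 and 7 of 14, beside 49.7%. MEIS2 replicate 1 overlapped TCF4 at 7 of 7 and 8 of 16, beside 66.6%, and HAND2 replicate 1 at 6 of 7 and 12 of 16, beside 80.8%. MEIS2 replicate 2 overlapped HAND2 replicate 1 at 5 of 7 and 7 of 13, beside 33.8%. The MEIS2 replicates overlapped each other at 3 of 7 and 7 of 16 replicate 1 peaks, beside 24.6%, and at 3 of 7 and 7 of 13 replicate 2 peaks, beside 16.8%.

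Fold values of the HAND2 replicates ran in parallel over the shared sites. Across the 29 sites with both HAND2 replicates the log2 folds correlated at Pearson's r = 0.913 and Spearman's rho = 0.927. Across the 10 sites with both MEIS2 replicates r was −0.0756 and rho 0.0424. The 3 at HAND1 had the same order in both, with 9.12, 14.1 and 15.2 in replicate 1 and 2.75, 5.84 and 7.97 in replicate 2. Over the 7 at HAND2 r was −0.134, and 2 of these had summits within 250 bp, so most of the pairs set side by side folds from separate summits. Between HAND2 replicate 2 and TCF4, r was 0.766 over 13 HAND1 sites and −0.147 over 6 HAND2 sites. Sites are not independent replicates. The paired values may also share the local background of a common control, which the sources used here do not state. The MEIS2 pile-ups were small, with medians of 42 and 16 fragments at HAND1 and 17 and 14 at HAND2 in replicates 1 and 2, and all 13876 peak identifiers of MEIS2 replicate 2 contain the word Flag although the labels give both MEIS2 libraries the same antibody.

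**Figure D4:**
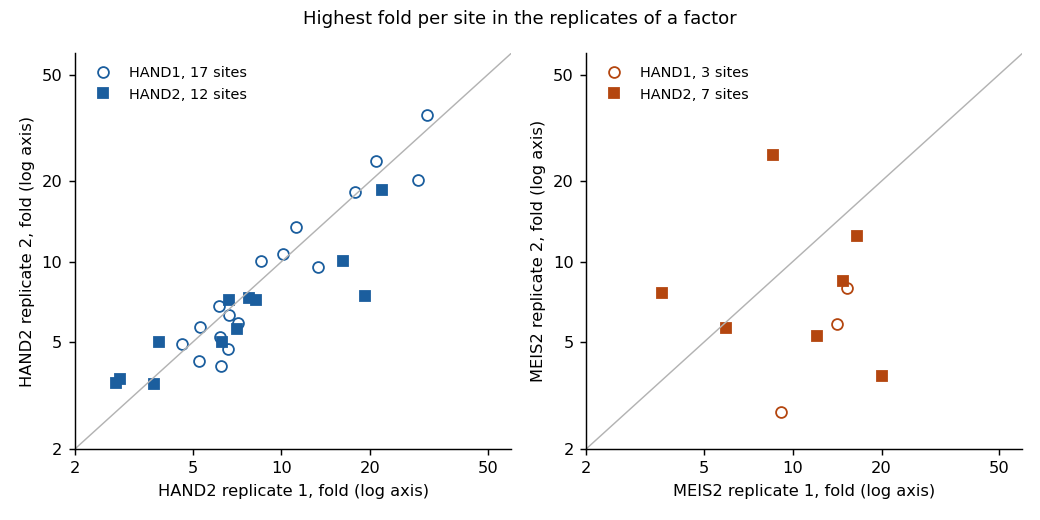
Highest fold per site (log axes) in replicate 1 against replicate 2 for HAND2 (left) and MEIS2 (right), at HAND1 (open circles) and HAND2 (filled squares); the line marks equal folds. The 29 HAND2 sites follow the line (r = 0.913 on log2 folds) and the 10 MEIS2 sites scatter (r = −0.0756).

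Set beside all 19970 protein-coding genes, the HAND2 locus stood out more for MEIS2 than for the other factors. Its numbers of MEIS2 summits within 200 kb, 16 and 13 in replicates 1 and 2, were matched or exceeded at 1.09% and 1.73% of genes, where the median gene had 1 in each list. For HAND1, with 7 in each, the shares were 11.3% and 7.09%. HAND2 replicate 1 had 20 summits at each locus, a number reached at 8.98% of genes. HAND2 replicate 2 had 24 at HAND1 (9.48% of genes) and 14 at HAND2 (23.4%), and the median gene had 4 and 5 in the HAND2 lists. TCF4 had 16 at HAND1 (26.6%) and 10 at HAND2 (38.0%), with a median of 6. Longer genes have wider windows, and neither HAND gene is long, at 3256 and 4139 bp.

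**Figure D5:**
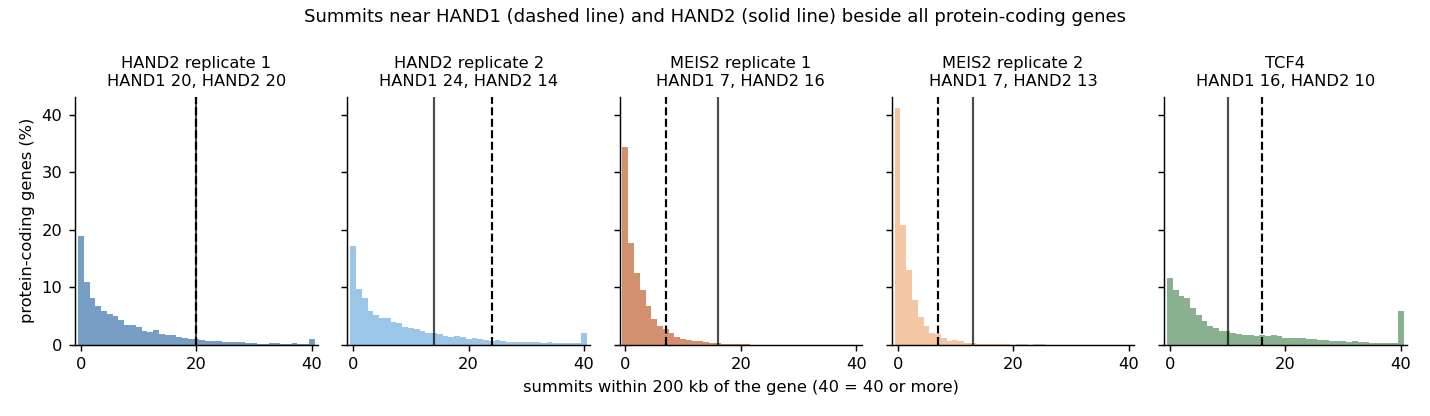
Share of protein-coding genes (%) by the number of summits within 200 kb, 1 panel per library with 40 or more counted as 40, with HAND1 (dashed line) and HAND2 (solid line). The lines stand farthest into the tail for MEIS2 at HAND2, with 16 and 13 summits, and nearest to the bulk for TCF4, with 16 and 10.

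Among 16 other bHLH genes related to the HAND genes (TWIST1, TCF21, TAL1, PTF1A and others), the median number of summits within 200 kb was 2.5 in each HAND2 list, 1.5 and 1.0 in the MEIS2 lists and 3.0 in TCF4. Of these 16, LYL1 alone reached the 20 summits of HAND2 replicate 1, and none reached the counts of the HAND2 locus in either MEIS2 list. The 14 summits of HAND2 replicate 2 at the HAND2 locus were reached by TWIST2, TCF23 and LYL1, and HAND1's 7 by 2 relatives in each MEIS2 list. In TCF4, 4 relatives reached the count of HAND1 and 5 that of HAND2. Of the 10 with a listed start, 0 and 1 had a peak of HAND2 replicates 1 and 2 within 1 kb of it, 0 and 0 one of MEIS2 and 1 one of TCF4. The 22 adrenergic regulators, genes for transcription factors of the sympathetic state such as GATA3 and ISL1, were closer to the HAND loci, with median counts of 10.5 and 11 in the HAND2 lists, 7.5 and 6.5 in the MEIS2 lists and 7.0 in TCF4. Peaks within 1 kb of a start were also common among the 14 regulators with a listed start. They were found at 12 and 12 of these in the HAND2 lists, 12 and 4 in the MEIS2 lists and 13 in TCF4. Over all 15811 protein-coding genes with a listed start the shares were 20.5% and 27.9% (HAND2), 11.7% and 2.04% (MEIS2) and 55.7% (TCF4). The start counts of the regulators and of the bHLH relatives are to be read beside these shares. Of the 22, 4 and 6 reached the 16 and 13 MEIS2 summits of the HAND2 locus: PHOX2A, TBX2 and MYCN in both lists, GATA2 in the first, and KLF7, MEIS2 and HEY1 in the second. None of these counts was adjusted for copy number, at MYCN or elsewhere.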

How the data were processed

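Peak lists of 5 CUT&Tag libraries were used, grouped by the antibody in the labels. Per the submitters' processing notes, bcl2fastq 2.17, Bowtie2 and MACS3 3.0.0a6 were used with hg38, with options not given in the sources used here. The deposited lists were called per sample. They give, per peak, the caller's fold ratio at the summit with −log10 of its p and of its q, unchanged from what the authors deposited, a score of 10 times −log10 q, and in 3 lists the fold ratio divided by width. The last 2 were not used. Left out were 15 peaks on other sequences than chromosomes 1 to 22 and X. Coordinates are 1-based.

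The lists hold no read totals. The whole pile-up and background that give both the deposited fold and p within a relative tolerance of 5e-05 were solved for, and found for 100% of peaks in every list. On 4865 simulated peaks 100% came back. Median pile-ups were 34 and 41 (HAND2), 22 and 13 (MEIS2) and 60 (TCF4). Intervals are exact 95% Poisson intervals.

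Gene positions, starts and promoter sequences came from RefSeq (GRCh38.p14), which lists a start for 15811 of 19970 protein-coding genes. Python 3.11.15, pandas 2.3.3 and scipy 1.17.1 were used. Peaks named are those at the gene starts, the strongest of each list and the sites with all 3 factors, with others to complete the map. The members, gene lists and tests were chosen with earlier results of these data known. Alternatives were other windows, thresholds and overlaps, and leaving out libraries.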

Additional observations from a re-analysis of the deposited data

How the results depend on the processing

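No peak count of the report comes from a test, so settings are compared by the counts themselves. With summits within 50 kb the HAND1 counts were 10 and 14 for HAND2, 2 for MEIS2 replicate 2 and 10 for TCF4, and the HAND2 locus had 6 TCF4 summits. With 100 kb HAND1 had 13 for HAND2 replicate 1 and 3 for MEIS2 replicate 2, and the HAND2 locus had 6 for TCF4. Of protein-coding genes, those with at least as many summits as HAND1 made up 5.44% and 3.66% (HAND2), 4.09% and 14.1% (MEIS2) and 12.2% (TCF4) at 50 kb, and 5.52% (HAND2 replicate 2), 5.83% and 13.2% (MEIS2) at 100 kb. For the HAND2 locus they made up 2.31% and 6.28%, 0.255% and 0.941%, and 24.9% at 50 kb, and 3.15% and 11.3%, and 0.591% and 0.801% at 100 kb. The HAND2 locus thus stood higher among genes in all 5 lists when the window was narrowed to 50 kb, and HAND1 stood higher in all but MEIS2 replicate 2.

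At a −log10 q of 5 or more HAND1 had 3 MEIS2 replicate 2 summits (18.0% of genes had as many), and the share of genes for MEIS2 replicate 1 at the HAND2 locus was 1.65%. With the 9000 peaks of highest −log10 q in each list HAND1 had 12 and 11 HAND2, 3 MEIS2 replicate 2 and 4 TCF4 summits, and the HAND2 locus had 7 and 4, 8 and 4. Joining peaks by summits within 250 bp gave 44 sites at the HAND2 locus, 2 of them with both MEIS2 replicates. Sites with all 3 factors numbered 4 to 7 at HAND1 and 2 to 6 at the HAND2 locus when each HAND2 or MEIS2 library was left out in turn, lowest without MEIS2 replicate 1. The other site counts stayed within 1.5 times, with 25 to 29 sites at HAND1 and 23 to 28 at the HAND2 locus. An overlap of 50% of the shorter peak moved no site count by over 1.5 times. No paired analysis was possible because the results come from no test. The low MEIS2 pile-ups limit what an absent MEIS2 peak shows.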

Other observations

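The summits of MEIS2 replicate 2 at the HAND2 locus were set off from those of MEIS2 replicate 1 and HAND2 replicate 1 in most shared sites. Their distances to HAND2 replicate 2 and TCF4 were not summarized. Over the 7 sites with both MEIS2 replicates the nearest summits lay 70 to 663 bp apart, with a median of 363 bp, and 2 were within 250 bp. Over all 2344 such sites of the genome the median was 168 bp, and 65.3% were within 250 bp. Between HAND2 replicate 1 and MEIS2 replicate 2 the median was 384 bp over 7 sites of the HAND2 locus and 181 bp over 4604 sites. MEIS2 replicate 1 lay a median of 67.5 bp from HAND2 replicate 1 over 12 sites of the locus, beside 64.0 bp over 7357 sites. At HAND1 the MEIS2 replicates were 0 to 212 bp apart at 3 sites.

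The local background also differed between the loci. Its median at HAND2 replicate 1 summits was 9.47 fragments at HAND1 and 3.23 at the HAND2 locus, beside 5.52 in the list, and for replicate 2 it was 10.7 and 5.59, beside 7.45. Of the 13 MEIS2 replicate 2 peaks at the HAND2 locus, 8 stood on the lowest background of their list, 0.765, beside 57.7% of the whole list and 0 of 7 at HAND1. Folds at that floor rest on pile-ups of 8 to 43. At the HAND2 locus 4 of 20 and 1 of 14 peaks of HAND2 replicates 1 and 2 stood on their lists' lowest backgrounds, beside 10.5% and 6.36%. So did 3 of 16 MEIS2 replicate 1 peaks, beside 10.5%, and 0 TCF4 peaks. The part of the background in the differences between the loci was not tested.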
